A study of Triticum aestivum with 8 samples.

Results

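Accessible chromatin of axillary buds after a cold treatment was compared with that of seedling leaves in hexaploid bread wheat (Triticum aestivum), cultivar AiKang58, by ATAC-seq, in which a transposase inserts sequencing adapters into open DNA. The buds measured 1.0 to 2.0 cm and were taken at 6 weeks of plant age, after plants 2 weeks old had been vernalized for 30 days at 4 °C under days of 16 h light. The leaves were taken at 2 weeks from seedlings with no cold treatment. Growth conditions outside the cold were 22 °C in the 16 h light period and 19 °C in the 8 h dark period for both groups. Tissue, plant age and cold therefore differ together between the groups and cannot be told apart. Each tissue had 2 libraries and 1 deposited list of accessible regions (peaks), so no difference given here has a replicate error and no test was possible. Values in brackets after a share or ratio are 95% Wilson intervals. They cover the counting error of peaks and no biological spread.

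The comparison covers 245150 of the 496486 peaks of the series: 122118 in the axillary bud list and 123032 in the leaf list. A peak was classed as shared when it overlapped a peak of the other list by at least 1 bp, and as specific otherwise. A list gives a chromosome, a start and an end for each peak. It gives no height, score or read count, so the sequencing depth behind a list is unknown, and absence from a list does not show closed chromatin. The build was not given in the sources used here. For that reason no peak was assigned to a gene, positions are those of the lists, and the tissue labels could not be checked against marker genes.

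As background, an axillary bud is a small shoot meristem with young leaf primordia that forms at the base of a leaf and, in wheat, can grow out as a tiller. It contains dividing and undifferentiated cells, whereas a leaf consists mainly of differentiated photosynthetic tissue. Prolonged cold (vernalization) brings winter wheats to flowering competence. In wheat chromosomes, genes are concentrated toward the ends, and the interior is rich in transposable elements and recombines rarely.

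Both lists were of nearly the same length, and in both somewhat more peaks were shared than specific. Bud-specific peaks numbered 55070, which is 45.1% of the bud list (95% interval 44.8 to 45.4). Leaf-specific peaks numbered 54543, which is 44.3% of the leaf list (44.1 to 44.6). Which list had the larger specific share depends on the overlap rule, because with a reciprocal overlap of 50% the shared share was 31.9% in buds and 31.7% in leaves. In bulk tissue, a region open in few cells and a region weakly open in many cells cannot be told apart, and either could be present in one list and missed in the other.

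Counted in bases the specific peaks were a smaller part of each list. They held 27.7 Mb in buds (29.4% of the bases of the bud list) and 27.8 Mb in leaves (32.6%). The bases common to both lists amounted to 44.4 Mb, or 47.1% of the bud bases and 52.1% of the leaf bases, with a Jaccard index of 32.9%. When overlapping peaks were merged, 63639 regions (36.7% of 173252) contained peaks of both lists. Of these shared regions, 56718 (89.1%) joined a single bud peak with a single leaf peak.

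Few peaks lay close to the line between the classes. The best overlap was 50 bp or less for 0.725% of shared bud peaks and 0.695% of shared leaf peaks, and its median was 465 bp in buds and 457 bp in leaves. The gap to the other list was 50 bp or less for 0.804% of bud-specific and 0.807% of leaf-specific peaks. A wider margin of 500 bp took in 11.8% of bud-specific (11.5 to 12.1) and 9.82% of leaf-specific peaks (9.57 to 10.1).

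The lists differed in where along the chromosome their peaks lay. Toward the ends the bud list was denser, and in the interior the leaf list was. In the outermost 1 Mb of the chromosomes there were 1492 bud and 844 leaf peaks, a ratio of bud to leaf of 1.77 (1.62 to 1.92). Beyond 200 Mb from both ends there were 22656 bud and 31079 leaf peaks, a ratio of 0.729 (0.717 to 0.742). The numbers of peaks were about equal between 50 and 100 Mb from an end, where the ratio was 1.01 (0.992 to 1.03).

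Between these extremes the ratio declined with distance, with one exception. It was 1.53 (1.41 to 1.66) from 1 to 2 Mb and 1.63 (1.55 to 1.72) from 2 to 5 Mb, and the intervals of both classes overlap. From 5 to 10 Mb it was 1.43 (1.38 to 1.49), from 10 to 20 Mb 1.39 (1.35 to 1.43) and from 20 to 50 Mb 1.21 (1.19 to 1.24). From 100 to 200 Mb it was 0.865 (0.851 to 0.879). The direction was shared by the chromosomes: buds had more peaks on 21 of 21 chromosomes in each class within 20 Mb of an end, on 20 from 20 to 50 Mb, on 12 from 50 to 100 Mb, on 1 from 100 to 200 Mb and on 0 beyond 200 Mb.

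**Figure D1:**
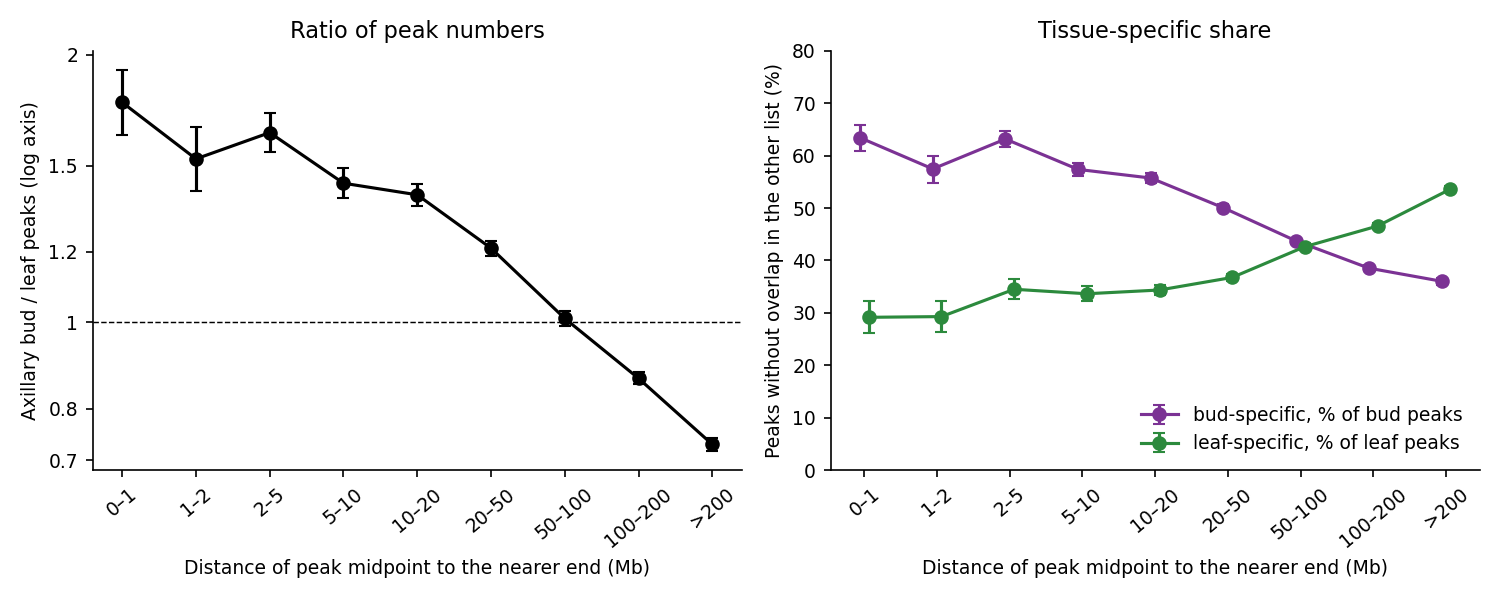
Ratio of axillary bud to leaf peaks (left, log axis) and share of peaks without overlap in the other list (right, %), by distance of the peak midpoint to the nearer chromosome end in Mb. Bars are 95% Wilson intervals (counting error only). The ratio is 1.77 in the outermost 1 Mb and 0.729 beyond 200 Mb, and the curves of the specific shares meet between 50 and 100 Mb.

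Densities per Mb restate this contrast by class. The overlap rule ties the shared peaks of both lists, since 89.1% of shared regions join a single bud peak with a single leaf peak. A difference in peak number therefore falls mainly in the specific classes. Within 1 Mb of an end there were 22.5 bud-specific and 5.86 leaf-specific peaks per Mb, while shared peaks had 13.0 per Mb in buds and 14.2 per Mb in leaves. Beyond 200 Mb there were 1.44 bud-specific and 2.94 leaf-specific peaks per Mb, with 2.56 shared peaks per Mb in buds and 2.55 in leaves. Bud-specific density thus dropped far more steeply from end to interior than leaf-specific density, and shared density lay in between. The specific share gives the same contrast in percent and is no separate observation. In the outermost 1 Mb, 63.4% of bud peaks (60.9 to 65.8) and 29.1% of leaf peaks (26.2 to 32.3) were specific. Beyond 200 Mb, 36.0% of bud peaks (35.4 to 36.7) and 53.6% of leaf peaks (53.03 to 54.1) were specific.

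The classes also differed in their typical distance to an end. The median distance to the nearer end was 57.2 Mb for bud-specific peaks (quartiles 19.3 and 140.4 Mb) and 128.5 Mb for leaf-specific peaks (54.7 and 224.0 Mb). The terminal 10% of a chromosome at either end held 54.6% of bud-specific peaks (54.1 to 55.0) and 29.9% of leaf-specific peaks (29.5 to 30.3). Shared peaks lay between, with 40.2% in buds (39.8 to 40.5) and 41.4% in leaves (41.03 to 41.8). On 21 of 21 chromosomes the outer share was higher for bud-specific than for leaf-specific peaks. It ranged from 42.04% on 5B to 63.8% on 7D for bud-specific peaks and from 23.1% on 7B to 37.7% on 4D for leaf-specific peaks, so these ranges did not overlap. Over all peaks of a list the ranges did overlap. The outer share was then 35.9 to 54.6% in buds and 28.5 to 44.8% in leaves, and higher in buds on 21 of 21 chromosomes.

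Along the relative length of the chromosome the ratio formed an asymmetric trough with a partial rise inside it. In the first 5% it was 1.36 (1.33 to 1.39) and in the last 5% 1.45 (1.42 to 1.48), above 1 on 21 of 21 chromosomes in both. At the first end it was 0.984 (0.952 to 1.02) already from 5 to 10% of the length. At the last end the bud excess reached further inward, with 1.16 (1.13 to 1.19) from 90 to 95% and 1.08 (1.05 to 1.11) from 85 to 90%. Over all chromosomes the ratio was 0.704 (0.668 to 0.742) from 25 to 30% and 0.826 (0.788 to 0.866) from 40 to 45%. The lowest ratio, 0.624 (0.592 to 0.658), was found from 50 to 55% of the length, and single chromosomes ranged from 0.461 to 1.06 in that bin.

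**Figure D2:**
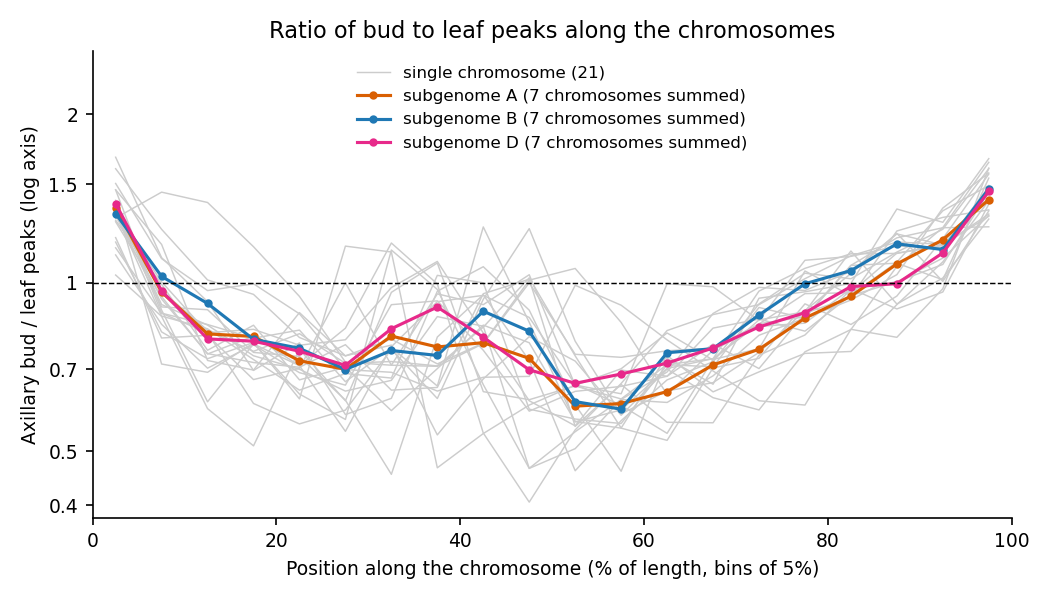
Ratio of axillary bud to leaf peaks (log axis) in 20 bins along the chromosome, in percent of its length. Grey lines are the 21 chromosomes, and coloured lines sum the 7 chromosomes of subgenome A, B or D. The coloured lines lie close together, above 1 in the first and the last bin and lowest between 50 and 60%.

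The 42 chromosome ends were also taken one by one, each as its outer 10 Mb. The bud list had more peaks at 41 of them, and at 39 the interval of the ratio lay above 1. The median ratio was 1.51 at chromosome starts and 1.56 at chromosome ends. The highest values were found at the end of 7A, with 356 bud and 165 leaf peaks (2.16, 1.79 to 2.59), and at the start of 5A, with 224 bud and 106 leaf peaks (2.11, 1.68 to 2.66). The end of 7D followed, with 373 bud and 196 leaf peaks (1.90, 1.60 to 2.26). At the start of 5A, 56 of the 224 bud peaks lay in a single stretch of 801 kb without a leaf peak. The exception was the start of 1B, which had only 25 bud and 26 leaf peaks (0.962, 0.559 to 1.65). Few peaks of either tissue were found there, so the interval is wide.

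Blocks of 10 Mb with at least 100 peaks of both lists together showed how uniform the pattern was. All 97 blocks with their nearer edge within 20 Mb of an end had a ratio above 1, from 1.05 to 2.11 with a median of 1.45. In 83 of the 97 the interval lay above 1. Sparser blocks, such as the first 10 Mb of 1B, fell below the minimum of 100 peaks and were left out. Of the 534 blocks beyond 100 Mb, 436 had a ratio below 1 and 86 above 1, with a median of 0.807. The interval lay below 1 in 170 blocks and above 1 in 9.

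From 50 to 100 Mb the blocks were mixed, with a ratio above 1 in 83 of 191 and below 1 in 105. Some interior blocks, chosen after their values were seen, had ratios well above 1. The highest ratio among blocks at least 50 Mb from an end was 1.70 (1.18 to 2.44), on 3B from 740000001 to 750000000, with 78 bud and 46 leaf peaks. Chromosome 6B held 3 of the 8 highest, among them the block from 50000001 to 60000000 with 211 bud and 135 leaf peaks (1.56, 1.26 to 1.94). Each of the 8 lay on a B chromosome. The shares of 6B and of the B chromosomes among all blocks at this distance are not given here. These counts therefore do not show a trait of either.

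The next comparison concerns peak width, which in ATAC-seq peak lists reflects the length over which insertions pass the caller's threshold. Specific peaks were narrower than shared ones in both tissues. The median width was 413 bp for bud-specific peaks (quartiles 300 and 600) and 400 bp for leaf-specific peaks (279 and 600). It was 750 bp for shared bud peaks (450 and 1225) and 625 bp for shared leaf peaks (375 and 1025). Part of this contrast is built in, because a wide peak overlaps another more easily.

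Wide specific peaks were scarcer in buds than in leaves, although the bud list had more wide peaks in all. Peaks of at least 2 kb numbered 6257 in buds and 4748 in leaves. Of these, 252 bud peaks (4.03%, 3.57 to 4.54) and 584 leaf peaks (12.3%, 11.4 to 13.3) were specific. Over all distances, narrow peaks went the other way. Of peaks of 300 to under 500 bp, 63.5% of bud peaks (63.1 to 64.02) and 54.8% of leaf peaks (54.3 to 55.3) were specific. Both contrasts pool locations. For this narrow class the bud share was larger within 20 Mb of an end (78.5 and 41.2%) and smaller beyond 100 Mb (54.4 and 61.2%). The same held for peaks of 1000 to under 2000 bp (27.5 and 16.4%, then 8.49 and 24.3%). Only for peaks of at least 2 kb was the leaf share larger in each zone of distance.

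The specific shares also differed by location within a class of width. Among peaks from 500 to under 1000 bp within 20 Mb of an end, 59.5% of bud peaks (58.4 to 60.6) and 26.9% of leaf peaks (25.8 to 28.2) were specific. Beyond 100 Mb the corresponding shares were 29.9% in buds (29.2 to 30.5) and 42.03% in leaves (41.4 to 42.7). The ratio of bud to leaf peaks near the ends increased with width. Within 20 Mb of an end it was 1.02 (0.975 to 1.08) for peaks under 300 bp, 1.49 (1.44 to 1.54) for 500 to under 1000 bp and 2.50 (2.29 to 2.73) for at least 2 kb. Beyond 100 Mb it was below 1 in all 5 classes, from 0.644 (0.625 to 0.663) under 300 bp to 0.891 (0.865 to 0.918) for 1000 to under 2000 bp. In numbers of peaks, the bud excess near the ends thus lay in peaks of at least 300 bp. Under 300 bp, 2584 bud and 1573 leaf peaks there were specific (81.4 and 50.7%). A site can fall in different width classes in each list, so these ratios do not show which sites made up the excess. Peaks of at least 2 kb near the ends were the class with the largest ratio of the 15 combinations of width and distance.

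**Figure D3:**
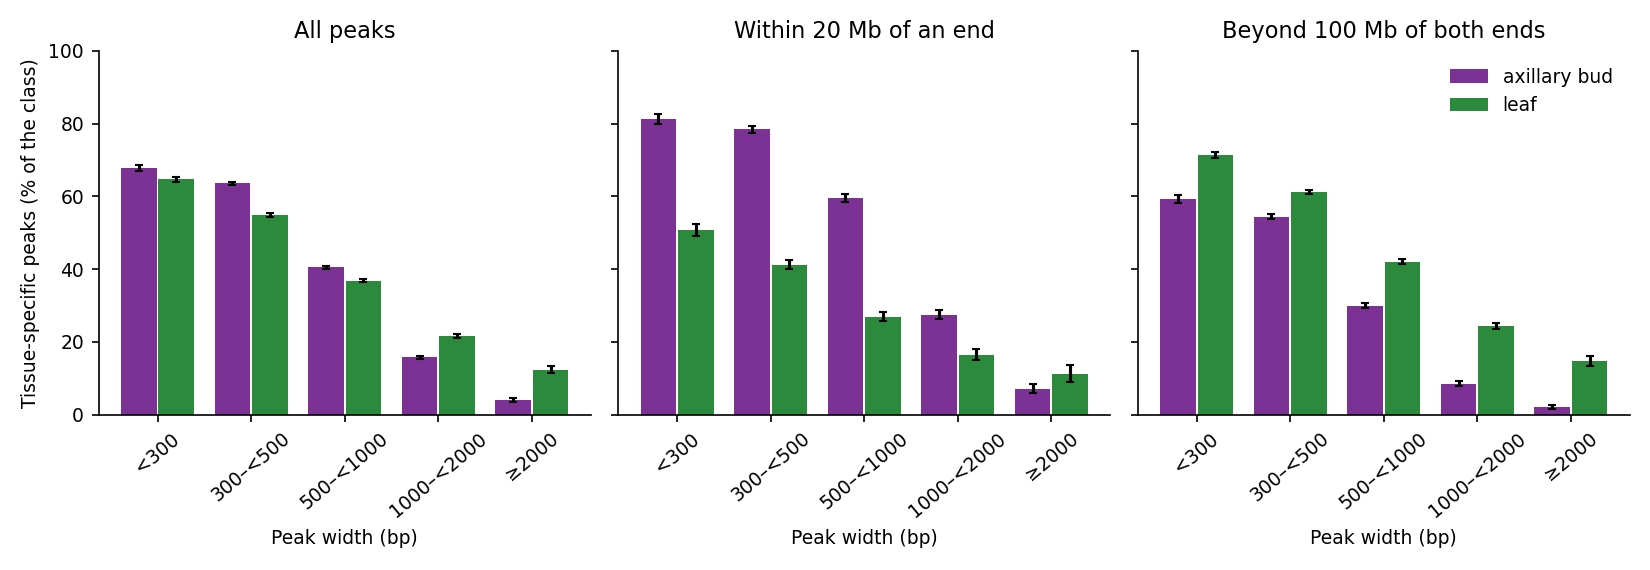
Share of peaks without overlap in the other list (%), by peak width in bp, for axillary bud (purple) and leaf (green) peaks, over all peaks, within 20 Mb of an end and beyond 100 Mb. Bars are 95% Wilson intervals (counting error only). In peaks from 500 to under 1000 bp the bud share exceeds the leaf share near the ends (59.5 and 26.9%) and lies below it in the interior (29.9 and 42.03%).

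Width was then compared inside shared regions, which were not chosen for presence in one list. In the 56718 regions with a single peak of each list, the median width was 725 bp in buds and 600 bp in leaves. The bud peak was the wider one in 59.7% of these pairs (59.3 to 60.1), the leaf peak in 37.1% (36.7 to 37.5), and both had the same width in 3.20%. The median difference was 94 bp (quartiles -125 and 381). The midpoints of a pair lay 122 bp apart in the median (quartiles 48.5 and 236.5), and in 55.04% of pairs the narrower peak lay wholly inside the wider one.

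The share of pairs with the wider peak in buds also declined with distance to the chromosome end. Within 1 Mb of an end the bud peak was wider in 79.7% of 454 pairs (75.8 to 83.2), with a median difference of 344 bp. From 10 to 20 Mb it was wider in 72.5% of 4193 pairs (71.2 to 73.9), with a median difference of 250 bp. Beyond 200 Mb it was wider in 49.2% of 12560 pairs (48.4 to 50.1), with a median difference of 0 bp. Bud peaks of these pairs were wider near the ends, with a median of 900 bp within 1 Mb and 628 bp beyond 200 Mb. Leaf peaks of the pairs were narrower there, with 500 bp within 1 Mb and 641.5 bp beyond 200 Mb.

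**Figure D4:**
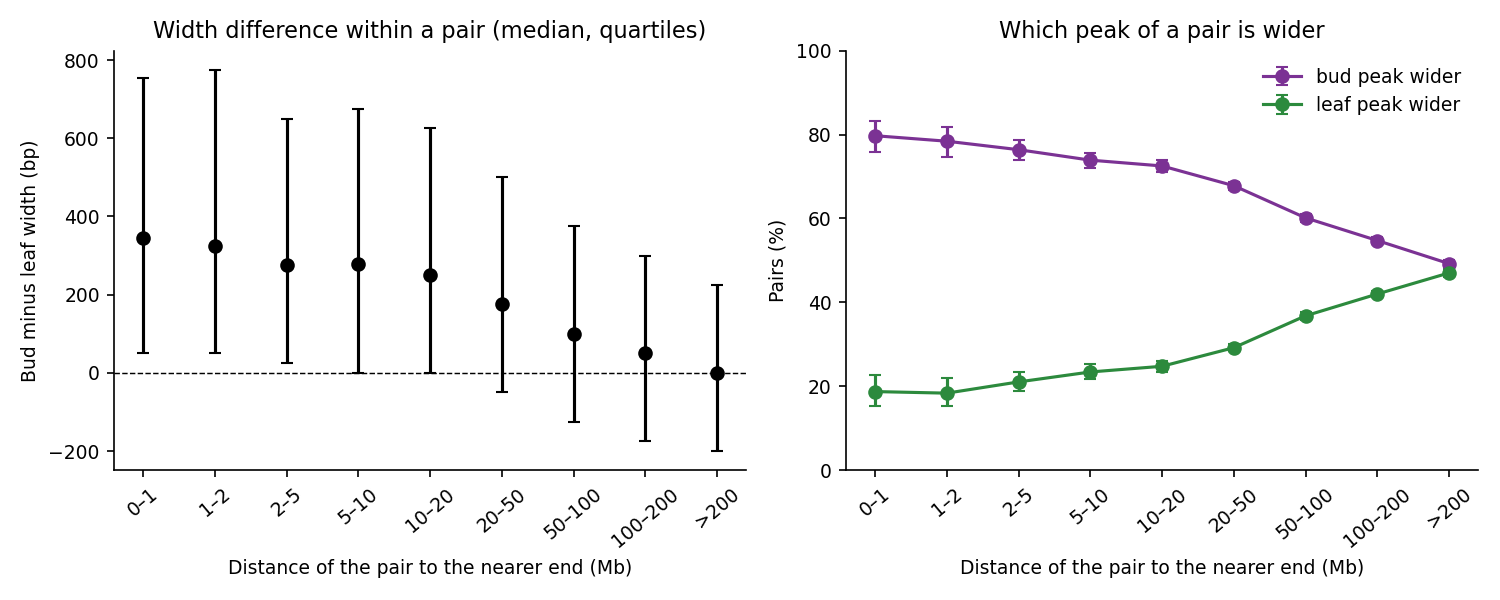
Shared regions with a single peak of each list, by distance to the nearer chromosome end in Mb. Left, bud minus leaf peak width in bp, as median (point) and quartiles (bars). Right, share of pairs with the wider peak in buds (purple) or leaves (green) and 95% Wilson intervals. The bud peak is wider in 79.7% of pairs within 1 Mb and in 49.2% beyond 200 Mb.

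Each chromosome showed the gradient of width. Within 20 Mb of an end the median difference of bud minus leaf width ranged from 150 bp on 4A to 329.5 bp on 7A. Beyond 100 Mb it ranged from -22 to 50 bp, and on 21 of 21 chromosomes it was smaller there than near the ends. Joined peaks followed the same direction. A single bud peak spanned several leaf peaks in 9.40% of shared regions within 20 Mb of an end (8.84 to 9.99) and in 4.70% beyond 100 Mb (4.47 to 4.94). The opposite case, a single leaf peak over several bud peaks, made up 3.06% within 20 Mb (2.74 to 3.42) and 4.54% beyond 100 Mb (4.31 to 4.78).

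The third comparison was by chromosome and subgenome. Bread wheat carries the related subgenomes A, B and D, each with 7 chromosomes, which form 7 homoeologous groups. Both tissues divided their peaks among the subgenomes almost alike. Of shared peaks, 33.7% lay on A, 32.9% on B and 33.5% on D in either list. The A subgenome held 32.6% of bud-specific (32.2 to 33.0) and 33.8% of leaf-specific peaks (33.4 to 34.2). The B subgenome held 33.6% of bud-specific (33.2 to 34.0) and 32.7% of leaf-specific peaks (32.3 to 33.0), and the D subgenome 33.8% (33.4 to 34.2) and 33.5% (33.1 to 33.9). The differences on A and B are about 1 percentage point and have no error from replicates. The difference on B rested on group 6: without that group, B held 32.3% of bud-specific (31.8 to 32.7) and 32.2% of leaf-specific peaks (31.8 to 32.6), and A held 33.4% of bud-specific (32.99 to 33.8) and 34.1% of leaf-specific peaks (33.7 to 34.5).

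The share of peaks that were specific varied between chromosomes of a subgenome. It averaged 44.3 ± 1.68% of bud peaks and 44.4 ± 0.401% of leaf peaks on A chromosomes (SD, n = 7 chromosomes). On B chromosomes it averaged 45.6 ± 2.23% in buds and 44.2 ± 1.71% in leaves, and on D chromosomes 45.2 ± 1.71% and 44.3 ± 1.61%. The SDs describe the spread between chromosomes, which do not replicate a tissue.

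The contrast between ends and interior was of like size in the subgenomes. The ratio of bud to leaf peaks in the outer 10% of the length was 1.26 ± 0.0948 for A, 1.28 ± 0.102 for B and 1.28 ± 0.0734 for D (mean ± SD over 7 chromosomes each). In the remaining 80% it was 0.810 ± 0.0406 for A, 0.861 ± 0.0390 for B and 0.823 ± 0.0354 for D. It was above 1 in the outer part on 21 of 21 chromosomes and below 1 in the rest on all of them.

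Chromosome 6B and group 7 stood apart from the others, chosen after their values were seen. Chromosome 6B had the largest ratio of whole chromosomes, with 6451 bud and 5870 leaf peaks (1.10, 1.06 to 1.14). There 48.2% of bud peaks and 40.5% of leaf peaks were specific, against 44.5 and 44.6% on 6A and 45.5 and 44.2% on 6D. It differed most from 6A and 6D in the zone from 20 to 100 Mb of an end, where 6B had 2726 bud and 2067 leaf peaks (1.32, 1.25 to 1.396) and the same zone of 6A (0.989) and 6D (0.949) had ratios near 1. Within 20 Mb of an end the ratio on 6B was 1.39, below those of 6A (1.45) and 6D (1.46). In pairs on 6B the bud peak was wider in 65.5% (63.7 to 67.2), the highest share of the 21 chromosomes, with a median difference of 150 bp.

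The chromosomes of group 7 had high shares of bud-specific peaks in all 3 subgenomes, where 7A reached 47.8% of bud peaks, 7B 49.1% and 7D 47.97%. Apart from 6B, no other chromosome exceeded the 46.3% of 3D. Leaf-specific shares of group 7 were 44.6% of leaf peaks for 7A, 45.4% for 7B and 46.1% for 7D, and their mean of 45.4% was likewise the highest of the 7 groups. Within 20 Mb of an end 7B had 889 bud and 473 leaf peaks, the highest ratio of the 21 chromosomes in this zone (1.88, 1.68 to 2.10), and 4D the lowest (1.30). Group 4 lay at the other side. Its ratio in the outer 10% of the length averaged 1.17 over 3 chromosomes, against 1.42 in group 7.

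**Figure D5:**
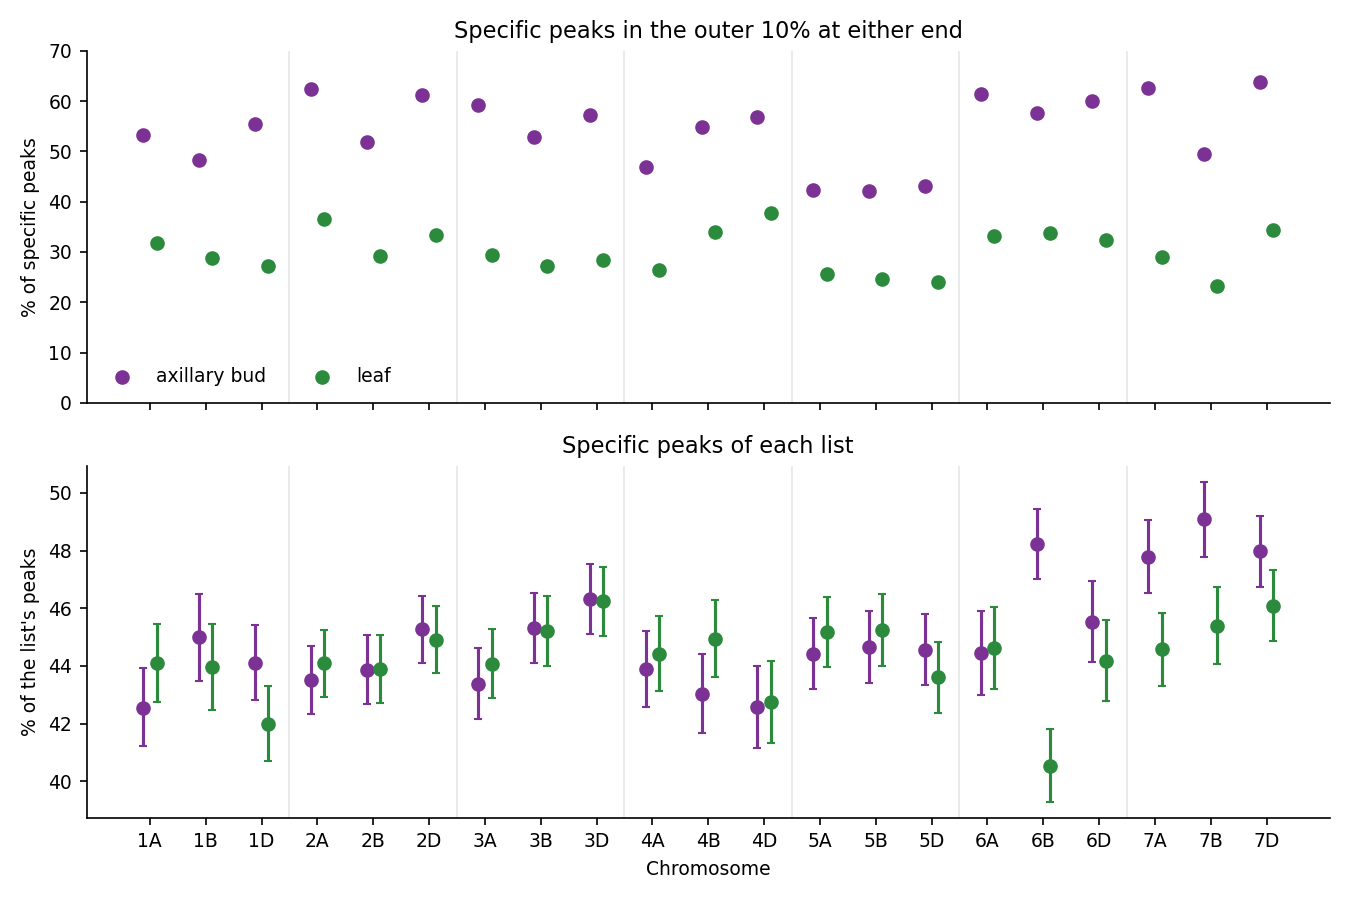
Top, share of the specific peaks of each list that lie in the terminal 10% at either chromosome end (%). Bottom, specific peaks in percent of the peaks of the list, with 95% Wilson intervals (axis not starting at 0). Axillary bud is purple and leaf green, for the 21 chromosomes. In the top panel bud values (42.04 to 63.8%) lie above leaf values (23.1 to 37.7%) on each chromosome, and in the bottom panel the bud values of 6B and group 7 are the highest.

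Windows of 1 Mb located the largest differences. Across 13548 windows with a peak in either list, bud and leaf counts correlated with a Pearson r of 0.870, given as a description, since windows share the density of the chromosome. A window was called when the larger count was at least 2 times the smaller and both summed to at least 20 peaks. Of 4314 windows that could be called, 263 (6.10%) had the higher count in buds and 203 (4.71%) in leaves. This order depends on the rule. With a sum of at least 10 peaks, 470 of 8415 testable windows were called for buds (5.59%) and 1005 for leaves (11.9%). Windows of 5 Mb gave 16 of 2646 for buds (0.605%) and 204 for leaves (7.71%).

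The called windows divided by distance. Of 700 testable windows with their midpoint within 20 Mb of an end, 127 were called for buds (18.1%) and 1 for leaves (0.143%). Of 1710 beyond 100 Mb, 17 were called for buds (0.994%) and 158 for leaves (9.24%). Both directions occurred on each chromosome. Bud calls were most frequent on 7A, with 27 of 195 testable windows, and 7B, with 25 of 191. They were least frequent on 4D, with 3 of 153, against 6.10% over all testable windows.

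Windows were also ranked by the difference in the number of peaks, whether or not they were called. The 8 windows with the largest bud excess all lay within 7 Mb of a chromosome end. The first, on 1B from 689000001 to 690000000, had 63 bud and 6 leaf peaks, and 59 of the bud peaks were specific. It is the last, incomplete window of 1B. On 3D the window from 2000001 to 3000000 had 99 bud and 49 leaf peaks, and the one from 613000001 to 614000000, near the opposite end, had 104 bud and 54 leaf peaks. These windows were dense in both tissues. The window from 2000001 to 3000000 was among the 8 on 2A as well, with 85 bud and 38 leaf peaks, and on 2D, with 84 bud and 38 leaf peaks. The remaining windows were on 2B from 794000001 (63 bud and 18 leaf peaks), on 4D from 509000001 (101 and 56) and on 1D from 491000001 (61 and 17). The windows on 4D and on 3D from 613000001 stayed below the fold of 2 and were not called.

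Leaf excesses were smaller in number of peaks and most lay in the interior. The largest were on 6B from 18000001 to 19000000, with 28 bud and 51 leaf peaks, and on 5B from 691000001 to 692000000, with 45 bud and 66 leaf peaks. Their midpoints lay 18.5 and 21.5 Mb from an end. The remaining windows lay 79.5 to 238.5 Mb from an end and had few bud peaks in most cases. On 5D from 238000001 to 239000000 there were 2 bud and 22 leaf peaks, and 21 of the leaf peaks were specific. On 1D from 365000001 to 366000000 there were 4 bud and 23 leaf peaks, and on 2D from 79000001 to 80000000 there were 13 bud and 33 leaf peaks. The windows on 3D from 505000001 (7 bud and 25 leaf peaks), on 6D from 291000001 (6 and 24) and on 5A from 549000001 (28 and 47) completed the set. The leading leaf windows on 6B and 5B, and the one on 5A, stayed below the fold of 2 and were not called.

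Consecutive specific peaks of one list, uninterrupted by any peak of the other, were joined into runs. The longest run was bud-specific and lay on 5A from 2365143 to 3165665, where 56 bud peaks followed each other over 801 kb without a leaf peak. Next were a pair of runs at the end of 1B, with 31 bud peaks from 689479160 to 689681081 and 27 from 689720707 to 689822539. Leaf runs did not exceed 18 peaks. That number was reached on 6A from 11565132 to 11601999, over 36.9 kb. Runs of 17 leaf peaks lay on 2D from 639714968 to 639892375 and on 5A from 350703839 to 354270120, the second spread over 3566 kb in the middle of the chromosome.

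Long runs are built from the specific peaks and showed the same placement in a stronger form. Runs of at least 5 peaks numbered 1142 in buds and 1520 in leaves and held 13.0% of bud-specific and 17.5% of leaf-specific peaks. The median distance to an end was 21.1 Mb for bud runs and 171.3 Mb for leaf runs, against 57.2 and 128.5 Mb for the specific peaks. Of the bud runs 48.6% had their midpoint within 20 Mb of an end and 9.81% beyond 100 Mb, and of the leaf runs 7.24% and 70.2%. The median span was 102.0 kb in buds and 262.5 kb in leaves. Most runs were single peaks, at 63.5% of the bud and 60.6% of the leaf runs.

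Bud-specific peaks had neighbours in the other list more closely than leaf-specific peaks had. Within 5 kb of a peak of the other list lay 50.9% of bud-specific (50.5 to 51.4) and 39.6% of leaf-specific peaks (39.2 to 39.996). The median gap to the other list was 4776 bp for bud-specific and 9515 bp for leaf-specific peaks. The contrast depended on location. Beyond 100 Mb the median gap was 5219.5 bp for bud-specific and 15123 bp for leaf-specific peaks, whereas within 20 Mb of an end it was 4583 and 4420 bp.

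The widest specific peaks were found in leaves. The widest of all spanned 8032 bp on 2B from 11356725 to 11364756, and the next 6760 bp on 5D from 15070638 to 15077397. Leaf-specific peaks of 6120 bp on 3B from 70287793 to 70293912 and of 6000 bp on 3A from 687523043 to 687529042 followed, and one of 5850 bp on 1B from 668243598 to 668249447. The widest bud-specific peak also had 5850 bp and lay on 2B from 785279845 to 785285694. A pair on 1B, of 5654 bp from 689799772 to 689805425 and of 5575 bp from 683094595 to 683100169, lay within 7 Mb of the chromosome end, the first inside the run of 27 bud peaks. The remaining bud-specific peaks of the 5 widest had 5025 bp on 3A from 720844491 to 720849515 and 4891 bp on 5D from 529256187 to 529261077.

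In the 3 widest shared regions a broad peak of one tissue faced several narrow ones of the other. On 1A from 588902966 to 588916634 a single bud peak of 13669 bp covered 6 leaf peaks, of which the widest had 3925 bp. The reverse was seen on 2B from 367713084 to 367726658, where a leaf peak of 13575 bp covered 3 bud peaks of at most 2400 bp. On 4A from 564143187 to 564156555 a leaf peak of 13369 bp covered 2 bud peaks of at most 800 bp. The bud-broad region lay 5.18 Mb from an end, and the leaf-broad regions 367.7 and 180.4 Mb.

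A trait of the lists themselves also differed between the tissues. Most widths were multiples of 25 bp, but 17.9% of bud widths (17.7 to 18.2) and 10.7% of leaf widths (10.5 to 10.9) were not. Such widths were somewhat more frequent within 20 Mb of an end, at 20.1% in buds and 12.1% in leaves, than beyond 100 Mb, at 16.9 and 10.3%. No peak was narrower than 201 bp and no gap within a list was smaller than 201 bp in either tissue. The way libraries were combined was not given in the sources used here. The part of these widths in the results was not tested beyond leaving such peaks out. With only multiples of 25 bp kept, a setting chosen after seeing the data, the ratio of bud to leaf peaks was 1.47 within 5 Mb of an end (1.64 with all peaks) and 0.675 beyond 200 Mb (0.729).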

How the data were processed

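ATAC-seq peaks of axillary buds and leaves were taken from the 2 deposited lists, 1 per tissue, which the labels of both libraries of a tissue cite. The submitters' processing notes name Trimmomatic 0.36, a read trimmer, with Bowtie2, an aligner, MACS2, a peak caller, and bedtools. Their settings, the build, the peak threshold and the handling of the libraries were not given in the sources used here. The lists deposited by the authors hold positions only, in bp, with no signal per library, so depth is unknown and neither a test nor a spread between replicates could be computed. The lists of roots and shoot apices were only counted.

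From the positions, peaks were classed with Python 3.11.15 and NumPy 2.4.6, tested on simulated lists, and the classes were the same with bedtools 2.31.1. Starts were taken as counted from 0 and are printed 1-based. The end of the last peak of either list stood for chromosome length (14064 Mb in all). Distance was measured from the peak midpoint. A ratio's interval comes from the Wilson interval of the bud share of both counts.

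Named by rule were the 5 widest specific peaks of each list, the 3 widest shared regions, 8 windows and 3 runs in each direction, and any chromosome. Members, classes and rules were chosen with earlier results of these data known. Alternatives were an overlap of 50% of both peaks, peaks up to 500 bp apart taken as shared, peaks of at least 500 bp or the 60000 widest, other outer zones and window rules, and leaving out chromosome 1B or each homoeologous group.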

Additional observations from a re-analysis of the deposited data

How the results depend on the processing

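No paired analysis was possible because each tissue has a single list without values of its libraries. Leaving out libraries could not be run either. The higher outer share of bud-specific peaks held on 21 of 21 chromosomes under each of the 7 alternatives run for it. Depth is unknown, so differences in the number and width of peaks may include it. With a reciprocal overlap of 50% the shared share was 31.9% in buds and 31.7% in leaves, the outer share 50.9% of bud-specific and 35.7% of leaf-specific peaks, and the median width 475 bp for bud-specific, 425 bp for leaf-specific and 700 bp for shared leaf peaks. Pairs then differed by 50 bp. With gaps of up to 500 bp the shared share was 60.2% in buds and 60.02% in leaves, the outer share 55.6 and 29.1%, and the median width 421 bp for bud-specific, 707 bp for shared bud and 600 bp for shared leaf peaks. Under both rules the bud list had the larger specific share on 6 chromosomes, against 11 by 1 bp. Peaks of at least 500 bp shared 51.96% in buds and 57.8% in leaves. Their outer shares were 56.1 and 29.2%, 32.05% of leaf-specific peaks were on B and 34.4% on D, and the ratio was 1.96 within 5 Mb of an end and 0.784 beyond 200 Mb. In this setting, added for windows after seeing the data, the named windows kept their direction, with bud minus leaf differences of 22 to 45 peaks in bud windows and -22 to -6 in leaf windows. Of the 60000 widest peaks 54.5% were shared in buds.

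Widths that are multiples of 25 bp, added after seeing the data, gave shared shares of 48.6% in buds and 44.99% in leaves, outer shares of 52.2 and 32.5%, a pair difference of 75 bp and ratios of 1.47 and 0.675. Other zones gave, for bud-specific and leaf-specific peaks, 73.7 and 51.4% (outer 20%), 37.3 and 16.2% (outer 5%) and 25.7 and 10.3% (within 20 Mb). In bases the ratios were 2.05 and 0.753, and D held 34.3% of bud-specific and 34.1% of leaf-specific bases. Without 1B the A, B and D shares were 33.8, 31.3 and 34.98% of bud-specific and 35.01, 30.3 and 34.7% of leaf-specific peaks, because a B chromosome is missing. Leaving out each homoeologous group gave shared shares of 54.6 to 55.5% in buds and 55.5 to 55.8% in leaves, and outer shares of 53.7 to 56.7 and 29.3 to 30.9%. Ratios were then 1.61 to 1.66 and 0.724 to 0.738. For bud-specific peaks A ranged from 32.02 to 33.4%, B from 32.3 to 34.3% and D from 33.2 to 34.3%, and for leaf-specific peaks A from 33.5 to 34.1%, B from 32.2 to 33.2% and D from 33.05 to 34.2%. Window calls depended on the rule. A fold of 3 left 45 bud (1.04% of 4314) and 39 leaf windows (0.904%). A sum of at least 10 peaks gave 470 bud (5.59% of 8415) and 1005 leaf windows (11.9%), which turns the direction of the larger count. Windows of 5 Mb gave 16 (0.605% of 2646) and 204 (7.71%). By bases there were 589 bud (13.7% of 4314) and 255 leaf windows (5.91%). All alternatives for the ratios were chosen after seeing the data. The cause of these changes was not tested.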
